A study of Capra hircus with 3 samples.

Results

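MT2A and MT3 are the genes of 2 metallothioneins, chosen as 2 of the 16739 genes in a single-cell RNA-sequencing table of fetal goat skin. They were picked with their stage change, their cell groups and their relation to DCN and SHH in view, so those patterns are described here and no test is given for any of them. Metallothioneins are small, cysteine-rich proteins that bind zinc and copper in clusters and release them again, and they also take up toxic metals such as cadmium. MT2A belongs to the widely expressed members that zinc, glucocorticoids and oxidative stress induce, zinc through the metal-sensing transcription factor MTF1. MT3 was first described as a growth inhibitory factor of the brain, and MT4 is a member of stratified squamous epithelia, the tissue type that also builds the hair follicle. DCN encodes decorin, a small leucine-rich proteoglycan of connective tissue, and SHH encodes sonic hedgehog, a ligand that follicle epithelium sends to the neighbouring cells.

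The cells came from the back skin of Northern Shaanxi White Cashmere goat fetuses at embryonic day 60 (E60), day 90 (E90) and day 120 (E120), with 1 library per stage and no genetic or drug treatment. Suspensions from at least 2 fetuses per stage were pooled before barcoding, so the 3 libraries carry no fetus identity and no replicate. At E60 and E90 whole skin pieces were digested with collagenase IV and pipetted apart; at E120 follicles were picked out of the digested skin with forceps and taken apart with the enzyme reagent TypLE Express (as the labels spell it). Stage, dissected tissue, enzyme and library therefore cannot be told apart at E120. The libraries held 6849 cells at E60, 6931 at E90 and 6896 at E120, with medians of 8579, 3714 and 13064 unique molecular identifiers (UMIs, 1 per captured transcript) per cell and totals of 65049552, 30277663 and 93403291 UMIs. The median share of mitochondrial counts per cell was 4.52%, 11.1% and 5.26%, highest in the E90 library. Pairs of libraries shared 9 to 13 cell barcodes. By the marker rule used here 71.9% of E60 cells were dermal-like, 83.1% of E120 cells were epithelial-like, and 72.7% of E90 cells stayed unnamed, most of them in a single large cluster whose leading genes include pigment-cell and mitochondrial genes (MLANA, TRPM1, COX3). Levels are given as counts per 1000000 UMIs (CPM) over all cells of a group, with 95% exact Poisson intervals, and shares of cells with exact binomial (Clopper-Pearson) intervals. Both cover counting error only, not the spread between fetuses or libraries. The Poisson intervals and those of ratios also leave out the spread between cells. Over E120 cells the variance of the count was 4.49 times its mean for MT2A and 7.51 times for MT3, so these intervals are too narrow. Intervals called separate or above 1 therefore describe counting error alone.

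Of 13 metallothionein symbols looked for, the table holds 3: MT2A, MT3 and MT4. In the RefSeq gene list of the goat assembly ARS1.2, MT4 is the next gene after MT3, and MT2A is named in the table only. How reads shared between near-identical family members were counted is not given in the sources used here, and the level of each member is uncertain to that extent. Levels of different genes are not ranked against each other, since each gene is captured with its own efficiency.

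MT2A and MT3 were both close to the detection limit in E60 skin, low at E90 and many times higher in the E120 follicle cells. MT2A, the metal- and steroid-inducible member, gave 24 UMIs in the E60 library, 292 in that of E90 and 6366 in that of E120. The level stood at 0.369 CPM (interval 0.236 to 0.549) in E60 skin, 9.64 CPM (8.57 to 10.8) in E90 skin and 68.2 CPM (66.5 to 69.9) in E120 follicles. The 3 intervals do not overlap, and the order is E60 lowest and E120 highest. MT3 gave 81, 116 and 11255 UMIs, or 1.25 CPM (0.989 to 1.55), 3.83 CPM (3.17 to 4.6) and 120.5 CPM (118 to 123). Its 3 intervals are separate too, with E60 and E90 lying near each other and E120 far above both.

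The step at which each gene differed most was not the same. From E60 to E90 the ratio of MT2A was 26.1 (exact interval 17.2 to 41.5), a log2 ratio of 2.96 with 1 CPM added to both levels. The MT3 ratio over the same interval was 3.08 (2.30 to 4.14), a log2 ratio of 1.11. Both are past a log2 ratio of 1, as are 23.6% of the 11419 genes that reach 1 CPM in either library (6.26% were lower by as much). The members stayed under 10 CPM in both libraries, and among the 6278 genes that reach it the shares were 21.3% higher and 8.08% lower. From E90 to E120 the MT2A ratio was 7.07 (6.28 to 7.97; log2 ratio 2.70), while the MT3 ratio was 31.5 (26.2 to 38.1; log2 ratio 4.65). MT2A thus had its larger ratio between the whole-skin libraries, and MT3 had it between E90 skin and E120 follicles; with 10 CPM added in place of 1 the order for MT2A turns, its log2 ratios being 0.92 and 1.99. Both members are past a log2 ratio of 1 from E90 to E120, as are 9.99% of the 6357 genes that reach 10 CPM in either library; 24.2% were lower by as much. Since the members were chosen on this contrast, nothing is read from that count. In the same set, 100 genes had a larger log2 ratio than MT2A and 35 a larger one than MT3. From E60 to E120 the ratios were 185 (124 to 289; log2 ratio 5.66) for MT2A and 96.8 (77.8 to 122; log2 ratio 5.76) for MT3, where 19.4% of 5982 genes were higher and 21.5% lower by a log2 ratio of at least 1. The median log2 ratio over all genes counted was 0.13, -0.24 and 0.02 for E90 over E60, E120 over E90 and E120 over E60.

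MT4, the member of stratified epithelia, had 0 UMIs at E60 and at E90 and 15947 UMIs at E120, or 170.7 CPM (168 to 173). Set against a floor of 3 UMIs in the earlier library (0.0461 CPM at E60, 0.0991 CPM at E90), MT4 stood 3702-fold above the floor of E60 and 1723-fold above that of E90. The exact lower limits of its ratios to these libraries were lower, at 3010 and 1401. DCN had the opposite order over these libraries, with 4323, 1216 and 377 CPM at E60, E90 and E120. SHH had 0 UMIs at E60 and stood at 18.5 CPM (17 to 20.1) in E90 skin and 30.6 CPM (29.5 to 31.7) in E120 follicles.

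**Figure D1:**
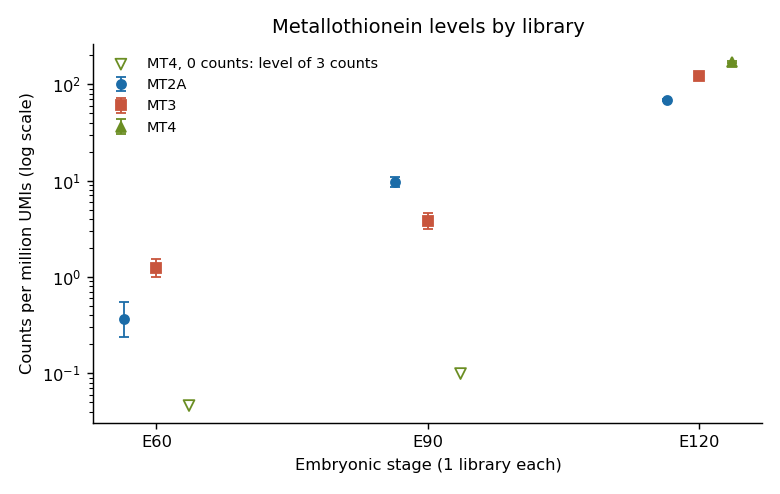
Levels of MT2A, MT3 and MT4 in the E60, E90 and E120 libraries, in CPM on a log scale; points are library levels, bars are 95% exact Poisson intervals, and open triangles mark the level of 3 UMIs where MT4 had 0. MT2A stands at 0.369, 9.64 and 68.2 CPM and MT3 at 1.25, 3.83 and 120.5 CPM, while MT4 is seen at E120 only.

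The share of cells with a UMI followed the same order once every cell was thinned to 2000 UMIs, a depth that all cells reached. At this equal depth MT2A was seen in 0.0730% (0.0237% to 0.170%) of E60 cells, 1.72% (1.42% to 2.05%) of E90 cells and 10.9% (10.2% to 11.6%) of E120 cells. MT3 was seen in 0.277% (0.167% to 0.433%), 0.750% (0.561% to 0.983%) and 16.7% (15.8% to 17.6%). Without thinning the shares at E120 were 32% for MT2A and 39.2% for MT3. The E120 transcripts were concentrated in few cells: the tenth of E120 cells with the most UMIs of the gene (690 cells) held 64.1% of the MT2A UMIs and 63.4% of the MT3 UMIs. A single E120 cell carried up to 23 MT2A UMIs and up to 39 MT3 UMIs, against at most 7 and 3 in any E90 cell and 2 and 3 in any E60 cell. The variance of the count over E120 cells was 4.49 times its mean for MT2A and 7.51 times for MT3.

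In bulk levels such as these, a larger share of cells that carry a gene and more transcript per cell cannot be told apart, and the cell types differ between the libraries. The summed level of 15 epithelial marker genes was 12.4, 5811 and 2047 CPM at E60, E90 and E120, with 4 of the 15 (KRT14, TP63, DSG3 and PERP) at 0 UMIs at E60, and that of 9 dermal fibroblast markers was 13558, 2540 and 90.0 CPM, with TWIST2 and DPT at 0 UMIs at E120. Their part in the stage ratios was not tested, nor was that of the mitochondrial share, which was highest at E90. Cells of the same name could be compared between E90 and E120. In epithelial-like cells MT2A was 10.7 CPM (8.29 to 13.7) in 1172 E90 cells and 72.0 CPM (70.3 to 73.9) in 5729 E120 cells, a ratio of 6.70 (5.25 to 8.70). MT3 in the same cells was 4.13 CPM (2.68 to 6.10) and 126 CPM (124 to 129), a ratio of 30.6 (20.7 to 47.3). Both ratios are close to those of the whole libraries. The epithelial-like cells of the 2 stages lie in different clusters, at E90 mainly clusters 10 (SPP1, MMP7, KRT7), 20 (LYPD2, KRT4, KRT10) and 21 (TAC1, SEMA3E), and at E120 mainly clusters 2, 4, 7, 8, 9, 14, 16 and 22, so they differ in more than stage.

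Cluster 21, led by SEMA3E and ATP1B1 among others, was the epithelial-like cluster with at least 50 cells at both stages. There MT2A was 21.4 CPM (14.0 to 31.3) in 165 E90 cells and 27.7 CPM (15.2 to 46.5) in 133 E120 cells, a ratio of 1.30 (0.626 to 2.58) whose interval includes 1. MT3 in cluster 21 was 5.76 CPM (2.32 to 11.9) and 27.7 CPM (15.2 to 46.5), a ratio of 4.82 (1.82 to 14.1). Within that cluster the MT3 interval thus lay above 1 and the MT2A interval did not, though they rest on 7 to 26 UMIs per stage. Its E120 cells had a median of 3476 UMIs and 17.8 CPM of MT4. Their immediate early and heat shock genes summed to 35276 CPM, against 6256 CPM in the whole E120 library. Free RNA was not measured in cluster 21 either, so its ratios are not read as a stage change of expression. Outside the epithelium the levels were low and of uncertain source. Dermal-like cells, in clusters 13 (BMP3, SPON1) and 37 (PRC1, CENPF) at E90 and in cluster 25 (FGF7, RSPO2) at E120, carried MT2A at 2.06 CPM (0.827 to 4.24) in E90 skin and 12.7 CPM (7.55 to 20.1) in E120 follicles, and MT3 at 1.76 CPM (0.647 to 3.84) and 22.6 CPM (15.5 to 32). Endothelial-like cells, in cluster 32 at E90 and cluster 18 at E120, had 2 UMIs of MT2A and 0 of MT3 in 83 E90 cells, and 18.3 CPM (13.6 to 24) and 26.2 CPM (20.5 to 32.9) in 363 E120 cells. Mast-like cells (CPA3, GATA2) had 1 UMI of each member in 67 E90 cells and 28 CPM (14.9 to 47.8) of each in 97 E120 cells. MT4, the stratified-epithelium member, stood at 16.3 CPM in the dermal-like, 17.9 CPM in the endothelial-like and 49.5 CPM in the mast-like E120 cells, in each near or above MT2A. In a further step the 6% of E120 cells highest in doublet score were left out, a choice made after seeing the data. The dermal-like E120 cells that remained had 4.31 CPM (1.40 to 10.1) of MT2A and 8.61 CPM (4.13 to 15.8) of MT3. Their MT2A interval overlaps that of E90 and their MT3 interval lies just above it, but no cells were left out at E90. The endothelial-like cells then had 9.78 CPM (6.13 to 14.8) and 5.78 CPM (3.08 to 9.88), and the mast-like cells 13.6 CPM (4.43 to 31.8) and 21.8 CPM (9.43 to 43). Free RNA from follicle cells in these droplets was not measured, so their UMIs are not read as expression and no stage ratio is given for them.

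At E60 the few MT3 UMIs were not spread evenly. Myeloid-like cells (69 cells, led by SPP1, CCL8 and CD163) had 30.0 CPM (18.6 to 45.9) of MT3 and held 25.9% of the gene's UMIs in 1.01% of the cells. A small unnamed cluster of 47 cells, cluster 30 (DRB3, LCP1, VPREB1), had 43.8 CPM (26.4 to 68.5). Dermal-like cells, which made up most of the library, had 0.321 CPM (0.180 to 0.529). Tendon- or cartilage-like cells (459 cells, with THBS4 and COL2A1) stood between, with 3.96 CPM (2.26 to 6.43) of MT3. They had 0 UMIs of MT2A, with an interval that reaches 0.913 CPM. MT2A at E60 rested on 24 UMIs, of which 5 lay in cluster 30 at 11.5 CPM (3.75 to 26.9), 5 in endothelial-like cells at 2.13 CPM (0.690 to 4.96) and 10 in dermal-like cells at 0.214 CPM (0.103 to 0.393). Cluster 30 thus had the highest point level of both members at E60. At E90 the large unnamed cluster held 73.3% of the MT2A UMIs and 69.0% of the MT3 UMIs in 71.4% of the cells. The E90 epithelial-like cluster 21 stood highest for MT2A at 21.4 CPM, its interval overlapping that of the suprabasal cluster 20 (15 CPM). For MT3 the E90 cells of cluster 30 stood highest, at 18.5 CPM (5.05 to 47.4), on 4 UMIs in 50 cells.

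At E120 both genes were highest in the same epithelial-like clusters, 4 and 8, which also held most of the library's DCN and SHH. The E120 cells fell into 17 clusters of at least 50 cells, made without MT2A, MT3, DCN and SHH, which together held 6841 of the 6896 cells. Between the highest and the lowest of them the level differed 94.0-fold for MT2A and 62.4-fold for MT3. Cluster 8 (595 cells) led with the mitosis genes TOP2A, CENPF and TPX2, and cluster 4 (908 cells) with CXCL14 and CCL20, which are chemokines, RBBP8, a DNA-end resection factor, and KITLG, the ligand of the KIT receptor on melanocytes.

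MT2A was highest in cluster 8 at 274 CPM (263 to 285), followed by cluster 4 at 185 CPM (176 to 194) and cluster 7 at 90.3 CPM (84.6 to 96.4), a cluster led by HIST1H1B and CENPF. These 3 levels are separate from each other and from all others, and 3 of the 17 clusters lay above the level of the whole E120 library. The remaining clusters ran from 30.1 CPM (26.2 to 34.6) in cluster 16 (CNFN, KRT23, SERPINB13) down to 5.91 CPM (4.53 to 7.57) in cluster 9, the inner root sheath keratin cluster (KRT27, KRT71, KRT25), with each interval overlapping the next. Cluster 22, led by the hair shaft genes GPRC5D and KRTAP11-1, was lowest at 2.91 CPM (1.78 to 4.5). Clusters 4, 7 and 8 held 80.5% of the library's MT2A UMIs.

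MT3 was highest in cluster 4 at 436 CPM (423 to 449) and next in cluster 8 at 404 CPM (391 to 418), intervals that do not meet. Then came the shallow, unnamed cluster 24 (S100A12, S100A8, KRT23) at 173 CPM (148 to 202) and cluster 16 at 148 CPM (139 to 157), whose intervals overlap, and cluster 7 at 98.6 CPM (92.6 to 105). Below these the levels ran from 39.4 CPM (25.2 to 58.6) in the haemoglobin-bearing cluster 28 to 6.99 CPM (5.15 to 9.27) in the shaft cluster 22, again with each interval overlapping the next. Clusters 16 and 24, which share KRT23 and SERPINB13, a serpin of squamous epithelium, were thus among the 5 highest for MT3 but stood at 30.1 and 28.9 CPM for MT2A, near the clusters that follow. Endothelial-like E120 cells had 18.3 CPM of MT2A and 26.2 CPM of MT3, below clusters 4, 7 and 8. So were papilla-like cells (cluster 25, led by FGF7, APOD and RSPO2), with 12.7 and 22.6 CPM. The epithelial-like clusters 9 (5.91 and 14 CPM), 26 (7.31 and 8.36 CPM) and 22 had lower point levels. Without the cells highest in doublet score the endothelial-like cells had 9.78 and 5.78 CPM and the papilla-like cells 4.31 and 8.61 CPM. No order between these 2 groups and clusters 9, 26 and 22 is read from the levels. The 21 myeloid-like E120 cells had 46.0 CPM (14.9 to 107) of MT2A and 82.7 CPM (37.8 to 157) of MT3, on 5 and 9 UMIs. Of these cells 66.7% were among the highest in doublet score, and the 5 MT2A UMIs lay in a single cell.

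MT4 had another distribution. Its highest E120 level was 822 CPM in the shaft cluster 22, where MT2A and MT3 were lowest, followed by 394 CPM in cluster 26 (KRT84, a shaft cuticle keratin) and 269 and 264 CPM in clusters 28 and 2 (HS3ST2, KRT35). In clusters 4 and 8 it was 107 and 56.2 CPM. Over the 17 clusters Pearson's r of log2(CPM + 1) was 0.87 (Spearman 0.89) between MT2A and MT3, and -0.14 (0.12) and 0.08 (0.22) between MT4 and each of them. These clusters share 1 library and are not independent, so the values only describe it. MT4, unlike MT2A and MT3, was not left out of the clustering and may have helped to shape the clusters. Without clusters 4 and 8 the MT2A and MT3 value was 0.74 over 15 clusters.

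**Figure D2:**
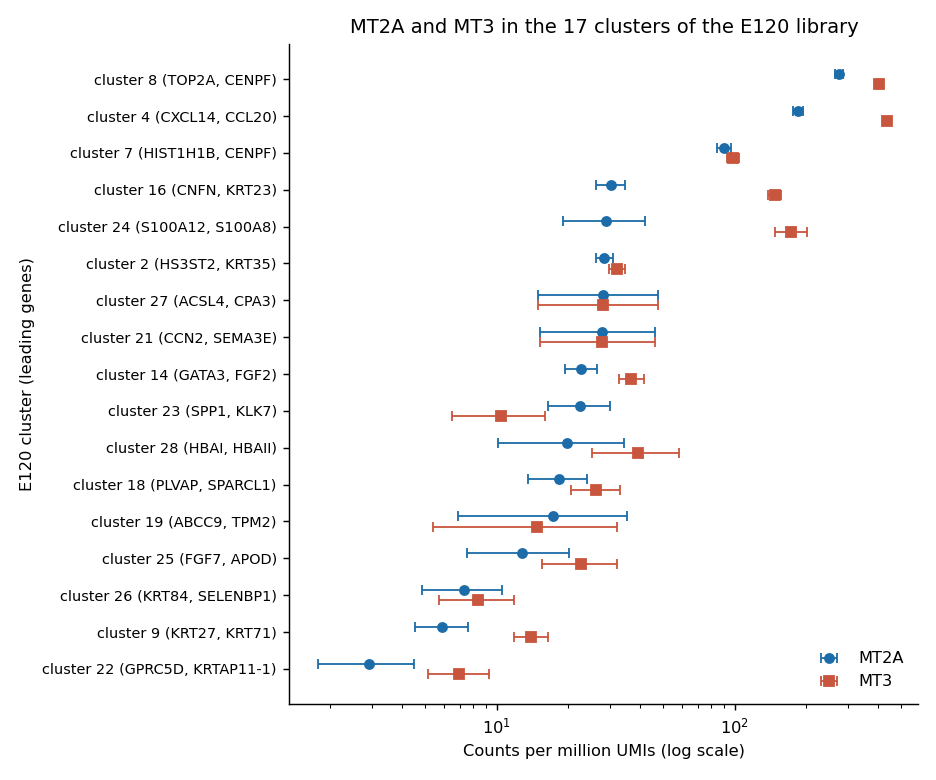
MT2A (circles) and MT3 (squares) in the 17 clusters of at least 50 E120 cells, in CPM on a log scale, with 95% exact Poisson intervals; clusters are ordered by MT2A and named by their leading genes. Clusters 8 and 4 are highest for both genes, clusters 16 and 24 are high for MT3 only, and the shaft cluster 22 is lowest.

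Clusters 4 and 8 together (1503 cells, 21.8% of the library) held 66.0% of the E120 MT2A UMIs and 68.8% of the MT3 UMIs. MT2A was 228 CPM (221 to 235) in them and 28.9 CPM (27.7 to 30.1) in the other 5393 E120 cells, and MT3 was 420.5 CPM (411 to 430) and 46.9 CPM (45.3 to 48.5). At equal depth 31.4% of their cells had an MT2A UMI and 46.8% an MT3 UMI, against 5.17% and 8.29% of the other cells. In the endothelial-like cluster both shares were 2.20%, and in the shaft cluster 22 they were 1.37% and 1.02%. Median depths before thinning were 6410 and 25746 UMIs there, against 11921 in clusters 4 and 8. The share that free RNA alone would give was not measured. Both genes were also seen together within those clusters: among their 472 cells with MT2A at equal depth 53.8% (49.2% to 58.4%) had MT3 too, and among their cells without MT2A 43.6% (40.6% to 46.7%) did. Over all E120 cells the corresponding shares were 40.6% (37.1% to 44.2%) and 13.8% (12.9% to 14.7%).

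Clusters 4 and 8 were named epithelial-like by 13 of 33 epithelial, suprabasal and hair markers, and their DCN came without the collagens of fibroblasts. The 15 epithelial markers alone were also low in them, summing to 936 CPM in cluster 4 and 851 CPM in cluster 8 against 2330 CPM in the other E120 cells, with KRT14, a basal keratin, at 77.1 and 76.0 CPM against 668 CPM. DCN was 1622 CPM in cluster 4 and 1406 CPM in cluster 8, above the 323 CPM of the papilla-like cells and the 579 CPM of the mural-like cells (cluster 19). COL1A1, the main chain of type I collagen, was 0.212 CPM in cluster 4 and 1.12 CPM in cluster 8 but 1012 CPM in the papilla-like cells. LUM, another small leucine-rich proteoglycan, was 0.424 and 0.223 CPM against 50.9 CPM. Of the 9 dermal fibroblast markers in the table, 3 (TWIST2, DPT and MFAP5) had 0 UMIs in each of the clusters 4 and 8, and the 9 summed to 11.7 and 10.5 CPM there against 2842 CPM in the papilla-like cells. Cell cycle genes moved with MT2A in part: the 7 in the table summed to 2335 CPM in cluster 8 and 1590 CPM in cluster 7, but to 528 CPM in cluster 4, against 642 CPM in the whole library. Cluster 14 and the mast-like cluster 27 had 1495 and 1166 CPM of these genes and 22.6 and 28 CPM of MT2A. The part of the cell cycle in these levels was not tested.

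E120 cells that carried DCN had more MT2A and more MT3 than those that did not. At equal depth 1595 cells had at least 1 DCN UMI (called DCN-high) and 5301 had none (DCN-low), because the quartiles of the DCN count were all 0. MT2A was 169 CPM (163 to 174) in DCN-high and 42.2 CPM (40.8 to 43.7) in DCN-low cells, a ratio of 3.99 (3.8 to 4.19; log2 ratio 1.97). MT3 was 327 CPM (319 to 336) and 67.0 CPM (65.2 to 68.9), a ratio of 4.88 (4.71 to 5.07; log2 ratio 2.27). In this split 3.67% of 5372 genes were higher in DCN-high cells by a log2 ratio of at least 1, with 14 genes above MT2A and 9 above MT3; the members were chosen on it, and nothing is read from their place. MT4 was lower, at 84.1 CPM (80.1 to 88.4) in DCN-high and 193 CPM (190 to 196) in DCN-low cells (log2 ratio -1.19), where 4.19% of genes were lower by at least 1. DCN-high cells also had more SHH (136 against 3.41 CPM), a higher sum of cell cycle genes (1114 against 520 CPM) and of dermal fibroblast markers (178 against 67.4 CPM, with TWIST2 and DPT of the 9 at 0 in both groups), a lower sum of the 15 epithelial markers (1048 against 2305 CPM, none at 0), a larger share of cells with a high doublet score (8.15% against 5.36%) and fewer UMIs (median 11653 against 13824). Their part in the split was not tested, though with the 6% of cells highest in doublet score left out the log2 ratios were 2.02 and 2.36.

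The relation to DCN was not a steady increase. Over cells with 0, 1, 2, 3 to 4, 5 to 7 and 8 or more DCN UMIs at equal depth, MT2A stood at 42.2, 122, 168, 216, 236 and 199 CPM. MT3 stood at 67.0, 262, 379, 437, 395 and 283 CPM over the same 6 groups. Both genes were thus lowest in cells without DCN; MT3 was highest at 3 to 4 UMIs and lower again in the 222 cells with the most DCN, where its interval (263 to 305) lies under that of the 262 cells with 3 to 4 (414 to 461). MT4 stood at 193 CPM in the cells without DCN and at 17.9 CPM in those with the most.

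**Figure D3:**
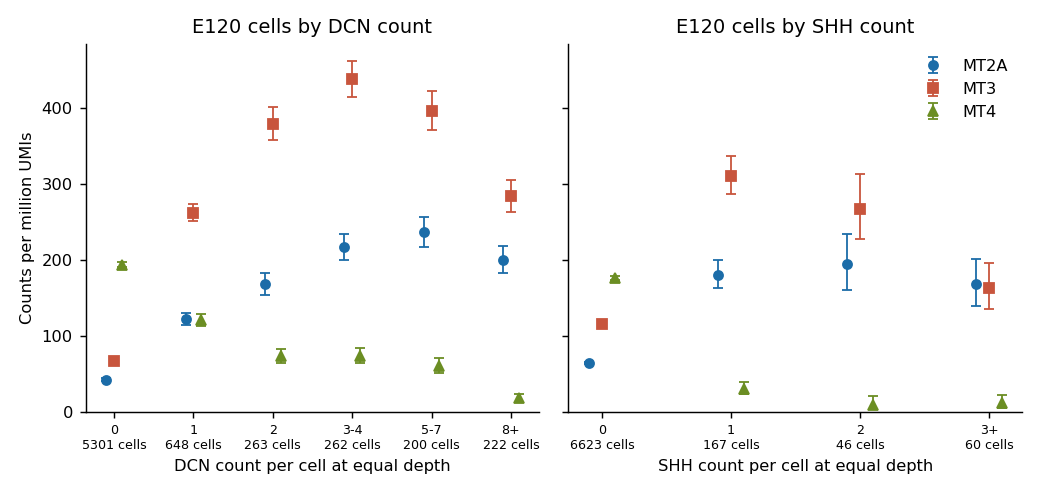
MT2A, MT3 and MT4 in E120 cells grouped by their DCN count (left) and SHH count (right) after thinning to 2000 UMIs, in CPM with 95% exact Poisson intervals and the number of cells under each group. MT3 reaches 437 CPM at 3 to 4 DCN UMIs and 311 CPM at 1 SHH UMI and is lower beyond, MT2A stays within 122 to 236 CPM in all groups with DCN, and MT4 is highest in cells at 0 in each panel.

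Between clusters, DCN and both members were high together in clusters 4 and 8, and less alike elsewhere. Over the 17 clusters Pearson's r with DCN was 0.74 (Spearman 0.54) for MT2A and 0.70 (0.65) for MT3, and without clusters 4 and 8 it was 0.46 (0.33) and 0.40 (0.49) over 15 clusters. The mural-like and papilla-like clusters had the next most DCN and little of either member. Over single E120 cells at equal depth r with DCN was 0.22 for MT2A and 0.30 for MT3 (6896 cells of 1 library). Among the 1503 cells of clusters 4 and 8 it was 0.01 and 0.04.

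**Figure D4:**
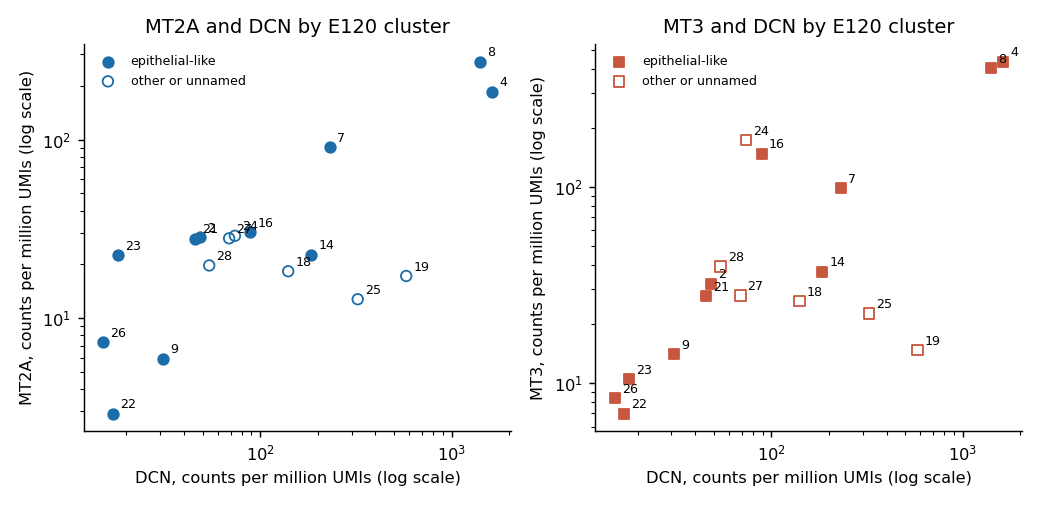
MT2A (left) and MT3 (right) against DCN in the 17 E120 clusters, each in CPM on log scales; points are clusters with their numbers, filled where epithelial-like and open where of another class or unnamed. Clusters 4 and 8 are high on both axes, while clusters 19 and 25 have 579 and 323 CPM of DCN and under 23 CPM of either metallothionein.

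Within clusters the split by DCN was computed where each side had at least 20 cells, which 11 clusters met. MT2A was higher in the DCN-high cells of 9 of the 11, in 7 with an interval above 1, and MT3 in 10 of the 11, in 8 with an interval above 1; no interval lay below 1. In clusters 4 and 8 themselves the MT2A ratios were 1.12 (1.01 to 1.24) and 1.19 (1.10 to 1.29), and the MT3 ratios 1.40 (1.31 to 1.51) and 1.40 (1.31 to 1.5). The ratios were larger in epithelial-like clusters with little of the genes: in the inner root sheath cluster 9, 23 DCN-high cells had 44.1 CPM of MT2A against 4.18 CPM in 571 DCN-low cells, a ratio of 10.5 (5.86 to 18.4), and the MT3 ratio was 5.44 (3.49 to 8.22). In cluster 14 (GATA3, FGF2) the ratios were 3.00 (2.13 to 4.17) and 5.0 (3.92 to 6.38). Cells with a high doublet score made up 26.1% of the DCN-high and 3.33% of the DCN-low cells in cluster 9, and 9.38% and 4.68% in cluster 14. Without them the cluster 9 ratios rested on 17 DCN-high cells and were 14.6 (7.62 to 27.1) and 6.54 (3.74 to 10.9), and those of cluster 14 were 2.86 (1.97 to 4.08) and 4.39 (3.32 to 5.77). In the endothelial-like cluster 18 the ratios over 22 DCN-high cells were 4.56 (2.23 to 8.76) and 5.39 (3.08 to 9.10), and 22.7% of those cells had a high doublet score against 8.80% of the DCN-low cells. Without the high scores only 2 MT2A and 4 MT3 UMIs were left in its DCN-high cells, and nothing is read from them. Over the 11 clusters, leaving these cells out gave 6 clusters with an MT2A interval above 1 and 1 below 1 (cluster 7, 0.778; 0.639 to 0.941), and 9 with an MT3 interval above 1. Free RNA that carries DCN, MT2A and MT3 together was not measured, and its part in these ratios was not tested. Computed over all cells of both clusters 4 and 8, the log2 ratio between DCN-high and DCN-low cells was 0.16 for MT2A and 0.49 for MT3, against 1.97 and 2.27 over the whole library. Outside them it was 1.33 and 1.44.

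SHH-positive E120 cells had higher levels of both members than SHH-negative cells over the library, but not within the clusters that held most of them. At equal depth 273 cells had at least 1 SHH UMI. MT2A was 179.9 CPM (166 to 195) in them and 64.1 CPM (62.4 to 65.7) in the other 6623 cells, a ratio of 2.81 (2.58 to 3.06; log2 ratio 1.48). MT3 was 271 CPM (254 to 290) and 115 CPM (113 to 117), a ratio of 2.36 (2.20 to 2.53; log2 ratio 1.23). In this split 7.6% of 5568 genes were higher by a log2 ratio of at least 1, and nothing is read from the members being among them. MT4 was 22.5 CPM (17.7 to 28.2) in SHH-positive cells and 176 CPM (173 to 179) in the others (log2 ratio -2.91), where 5.78% of genes were lower by at least 1. SHH-positive cells had 3577 CPM of DCN against 260.1 CPM, cell cycle genes summing to 1665 against 605 CPM, and epithelial markers summing to 831 against 2091 CPM; their part was not tested.

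Within clusters 4 and 8 the order of MT3 was the opposite. In cluster 4 it was 346 CPM in 132 SHH-positive and 451 CPM in 776 SHH-negative cells, a ratio of 0.767 (0.695 to 0.844). In cluster 8 it was 298 CPM in 86 and 422 CPM in 509 cells, a ratio of 0.706 (0.634 to 0.785). The MT2A ratios were 0.905 (0.784 to 1.04) and 0.905 (0.802 to 1.02), with intervals that include 1. Cluster 14, the third with at least 20 cells on each side, had an MT2A ratio of 3.64 (2.06 to 6.02) and an MT3 ratio of 1.35 (0.668 to 2.46). Over cells with 0, 1, 2 and 3 or more SHH UMIs MT3 stood at 115, 311, 267 and 163 CPM, so that the 60 cells with the most SHH (interval 135 to 196) had less MT3 than the 167 cells with 1 UMI (287 to 336). MT2A stood at 64.1, 180.2, 194 and 167 CPM, with overlapping intervals among the 3 SHH-positive groups.

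**Figure D5:**
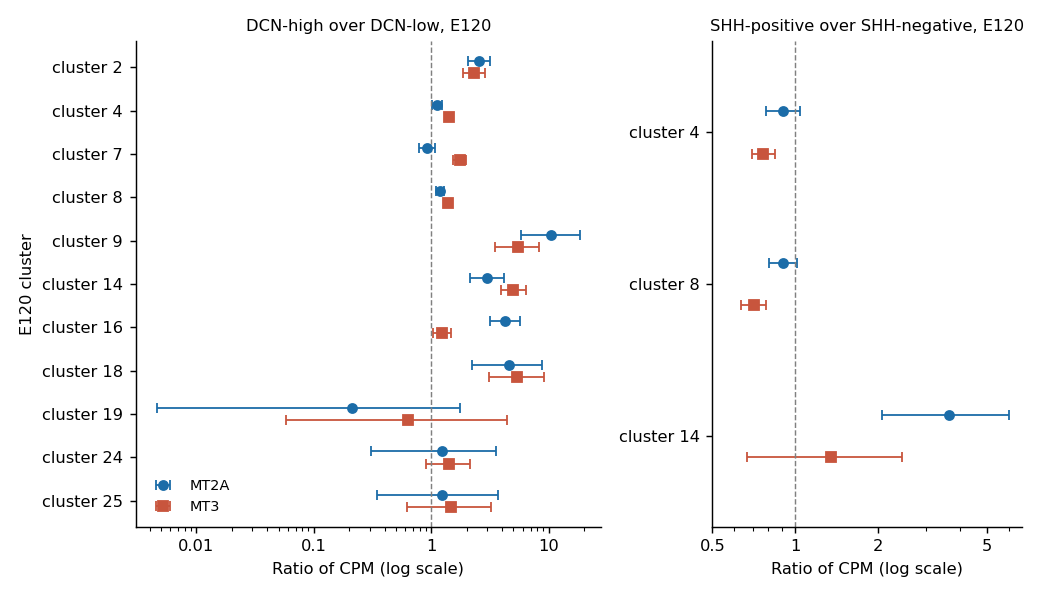
Ratio of MT2A (circles) and MT3 (squares) CPM within single E120 clusters, DCN-high over DCN-low cells (left, 11 clusters) and SHH-positive over SHH-negative cells (right, 3 clusters), on log axes with 95% exact intervals; the dashed line marks 1. Most DCN ratios lie above 1, while the SHH ratios of MT3 in clusters 4 and 8 are 0.767 and 0.706.

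Taking DCN and SHH together, cells with neither were lowest. The 5259 cells without both had 41.9 CPM (40.4 to 43.4) of MT2A and 66.3 CPM (64.5 to 68.2) of MT3. The 1364 cells with DCN alone had 164 CPM (158 to 170) of MT2A and 334 CPM (325 to 343) of MT3. The 231 cells with both had 195 CPM (179 to 212) and 288 CPM (269 to 309). Over all E120 clusters together, SHH beside DCN thus went with more MT2A and less MT3, each with intervals that do not meet. Within clusters 4 and 8, split by SHH without regard to DCN, MT2A was not higher in SHH-positive cells (ratios of 0.905 and 0.905). The relation to SHH at a given DCN count was not tested within these clusters. The part of the cluster mix in the 4 groups was not tested. The 42 cells with SHH alone had 94.8 CPM (69.7 to 126) of MT2A and 175 CPM (141 to 216) of MT3.

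At E90 the members did not follow DCN in the same direction. There the lower quartile of DCN at equal depth was 1 UMI and the upper 3, and with ties 2563 cells at 3 or more were DCN-high and 2901 at 1 or fewer DCN-low. MT2A was 7.70 CPM (6.14 to 9.53) in the former and 10.6 CPM (8.97 to 12.5) in the latter, a ratio of 0.723 (0.546 to 0.954). MT3 was 2.48 CPM (1.63 to 3.60) and 4.35 CPM (3.30 to 5.62), a ratio of 0.569 (0.347 to 0.913). In these groups dermal fibroblast markers summed to 3836 and 1638 CPM, and epithelial markers to 4082 and 7234 CPM, with none of either list at 0; the group with more MT2A and MT3 thus had fewer fibroblast and more epithelial transcripts. Their part in the ratios was not tested. The SHH split at E90 rested on 11 MT2A UMIs and 3 MT3 UMIs in 235 SHH-positive cells, and its ratios of 1.15 (0.565 to 2.08) and 0.777 (0.158 to 2.33) have intervals on both sides of 1. The small E90 epithelial-like cluster 35 (55 cells, with CXCL10 and FGF20) had 0 MT2A UMIs. The interval reaches 12.2 CPM, above the 9.64 CPM of the whole E90 library. Its MT3 was 6.63 CPM (0.802 to 23.9) on 2 UMIs, beside 3.83 CPM in that library. The cluster carried both DCN and SHH, and no relation to them is read from so few UMIs.

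Other genes of zinc, metal and redox handling were counted in the same comparisons, and only some of them stood higher where the metallothioneins did. The counts from E90 to E120 stand beside 9.99% of all genes higher and 24.2% lower. From E90 to E120, of 3 zinc exporters of the SLC30 family at 10 CPM or more 1 was higher by a log2 ratio of at least 1 and none lower: SLC30A1, the plasma membrane zinc exporter that MTF1 also controls, was 67.3 CPM at E90 and 200.3 CPM at E120 (log2 ratio 1.56). Of 5 zinc importers of the SLC39 family 2 were higher, SLC39A10 (60.0 and 242 CPM; 1.99) and SLC39A3 (7.83 and 17 CPM; 1.03). The median log2 ratio was -0.16 for the SLC30 list and 0.89 for the SLC39 list, beside -0.24 over all genes counted. Of 4 metal-sensing genes at 10 CPM or more none was higher and BACH1 was lower (-1.10). Of 5 redox genes under NRF2 control 3 were higher, namely the thioredoxin reductase TXNRD1 (17.4 and 52.7 CPM; 1.55), thioredoxin TXN (245 and 671 CPM; 1.45) and the glutathione peroxidase GPX4 (17 and 44.3 CPM; 1.33). Of 4 glucocorticoid targets at that level 1 was higher (FKBP5, 1.16) and 2 lower (SGK1, -1.69, and NR3C1, the receptor itself, -1.45). Immediate early and heat shock genes, which dissociation is known to induce, were lower in 6 of 11 and higher in none, summing to 12532 CPM at E90 and 6256 CPM at E120.

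In the E120 split by DCN, SLC30A1 was 158 CPM in DCN-high and 211 CPM in DCN-low cells (log2 ratio -0.41), and none of the 3 SLC30 genes passed a log2 ratio of 1 in either direction. SLC39A10 was higher (432 against 193 CPM; 1.16) and SLC39A8 lower (11.2 against 29.7 CPM; -1.33), as they were in the split by SHH (1.40 and -1.36). None of 3 metal-sensing genes, 5 copper-handling genes, 5 redox genes or 10 dissociation genes passed a log2 ratio of 1 between DCN-high and DCN-low cells. Of 6 cell cycle genes 3 were higher, TOP2A, CENPF and MCM5, with a list median of 0.95 beside 0.11 over all genes counted, of which 3.67% were higher and 4.19% lower. Of 6 iron-handling genes 1 was lower and none higher in each split, with list medians of 0.15 (DCN) and -0.12 (SHH). Over all genes 5.78% were lower by as much in the split by SHH. The lower gene was SLC40A1, the iron exporter ferroportin, in DCN-high cells (9.49 against 35 CPM, log2 ratio -1.78) and in SHH-positive cells (3.95 against 30.7 CPM, -2.68).

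The genes most like MT2A and MT3 over the 17 E120 clusters were sought among the 4022 genes that reached 50 CPM in any of them, by Pearson's r of log2(CPM + 1). For MT2A the highest was MT3 (0.87), followed by GPR180 (0.83), CAD, which encodes the enzyme that starts pyrimidine synthesis (0.83), P97BCNT (0.82) and RBBP8 (0.81). For MT3 they were the gene with the identifier ENSCHIG00000020804 (0.91), NPTX2, a neuronal pentraxin (0.90), GPR180 (0.89), MSX1, a homeobox transcription factor (0.88), and MT2A (0.87). NPTX2 reached 1070 CPM in its highest cluster, which was neither 4 nor 8, while the other genes named for MT3 were highest in one of these. DCN ranked 36th for MT2A (0.74) and 42nd for MT3 (0.70), and SHH 38th (0.74) and 83rd (0.64). The genes with the lowest values were PLCD1, a phospholipase C (-0.89), ATP6V1H, a proton pump subunit (-0.86), and CLTB, a clathrin light chain (-0.76), for MT2A, and ATP6V1H (-0.81), ITM2B (-0.80) and ENSCHIG00000008218 (-0.76) for MT3. Since the clusters share 1 library and few of them carry the high levels, these values rank genes and test nothing.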

How the data were processed

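Dorsal skin or follicle cells of goat fetuses were sequenced on the 10x platform with 3′ chemistry, 1 library per stage, per the labels' protocols. Counts came from Cell Ranger 3.0.2, per the submitters' processing notes; build, annotation, treatment of multi-mapping reads and cell filters are not given in the sources used here. The deposited table holds natural log values, ln(1 + count scaled to 10000 per cell). Inverting them gave whole UMI counts for 100% of non-zero values within 0.01, 20676 cells in all, beside 19705 stated in the design text. UMIs were summed per group and scaled to CPM; folds are also given as log2 ratios of CPM + 1, which understate changes of low genes. For folds against 0 UMIs a floor of 3 counts was used, which lies under the exact upper limit.

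Cells were clustered with the Leiden algorithm (igraph 0.11.9, leidenalg 0.10.2) on 2000 variable genes, 30 principal components and 20 neighbours at resolution 1, leaving out MT2A, MT3, DCN and SHH, which gave 39 clusters. Scaling, link weights and the naming rule (each cluster within a library; at least 3 markers; among its 10 leading genes, markers of no other class outnumbering its own) were set after clusters had been seen. An "-like" name rests on these markers. Doublets were scored by simulation and none were removed. Cells were split on counts thinned to 2000 UMIs per cell. Genes of at least 10 CPM in the higher group were counted past a log2 ratio of 1. The members, lists and comparisons were chosen with earlier results of these data known. Beyond MT2A, MT3, DCN, SHH and other metallothioneins, genes are named as the at most 3 largest log2 ratios of a pathway list, as the 5 most and 3 least alike genes, or as leading and marker genes. With 1 library per stage no p-value is given. The ratio calculation was tested on simulated data.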

Additional observations from a re-analysis of the deposited data

Results flagged for a closer look

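The split of cells by DCN gave opposite directions at E90 and E120. For MT2A the log2 ratio of DCN-high over DCN-low cells was -0.42 at E90 and 1.97 at E120, and for MT3 it was -0.62 and 2.27. The difference was not tested, since each stage is 1 library. The E90 split compares cells at or above the upper quartile value of DCN (3 UMIs) with cells at or below the lower one (1 UMI), groups enlarged by ties, whereas the E120 split compares cells with and without a DCN UMI at equal depth.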

How the results depend on the processing

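All 36 alternatives to the stage ratios kept their direction (another pseudocount, median-of-ratios scaling, equal weight per cell, a filter on cells, high doublet scores left out, other totals), and 33 of 36 did so for the splits by DCN and SHH. A pseudocount of 10 CPM, which shrinks ratios of low levels by construction, gave log2 ratios for MT2A and MT3 of 0.92 and 0.30 from E60 to E90, 1.99 and 3.24 from E90 to E120, 2.91 and 3.54 from E60 to E120, and 1.77 and 2.13 for DCN. Within clusters 4 and 8 the SHH log2 ratio changed sign, to -0.14 for MT2A and -0.44 for MT3. For MT2A the ratio of each of these clusters had an interval that includes 1, so only for MT3 is a reversal read. The DCN log2 ratios within clusters 4 and 8 were 0.16 and 0.49. Outside them the values were 1.01 and 0.43 for SHH and 1.33 and 1.44 for DCN. Averaged over clusters, the SHH log2 ratio was 0.51 for MT2A and -0.15 for MT3 (3 clusters), and the DCN one 0.81 and 0.97. Thinning to 1000 UMIs gave 2.09 (DCN) and 1.11 (SHH) for MT3, at least 2 SHH counts gave 0.81, and leaving out high doublet scores gave 2.36 for DCN; the cause was not tested. The highest cluster stood at 228 CPM of MT2A and 420.2 CPM of MT3 at resolution 0.5, where clusters 4 and 8 merge, and at 234 CPM of MT2A with unscaled genes and unweighted links. The splits inside and outside clusters 4 and 8 and the unscaled clustering were chosen after seeing the data. Splitting at the DCN median gave the same cells as the main split. With a minimum of 1 CPM, 2693 in place of 1337 genes were higher from E60 to E90, 2836 in place of 1539 lower from E90 to E120, and 2019 and 2123 in place of 1162 and 1284 higher and lower from E60 to E120. No paired analysis was possible because each stage is 1 library, and no replicate could be left out. E60 levels rest on 24 and 81 UMIs, and the E90 library is the shallowest.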
